A study of Mus musculus with 5 samples.

Results

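RNA polymerase II was compared between kidney and lung of adult FVB mice by chromatin immunoprecipitation and sequencing, with 1 library per tissue. Regions were built from the deposited peak positions of both tissues, each extended by 250 bp to both sides and merged where they overlapped. This gave 112236 regions, against 186413 when the peaks of all 5 tissues in the series (brain, kidney, liver, lung and spleen) were merged the same way. Kidney and lung were treated alike: freshly dissected tissue, about a gram per library, was crosslinked with 1% formaldehyde for 10 min, and an Abcam antibody against the polymerase was used. The sources used here do not state how many animals were used, whether they were pooled, or their sex and exact age, and no genetic or drug treatment is named. The design asked which promoters are active in which tissue.

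RNA polymerase II transcribes protein-coding genes and many noncoding RNAs. It is recruited to promoters, often pauses shortly after the start site, and then moves along the gene body, so reads in such an experiment collect both at sharp start-site peaks and, at strongly transcribed genes, over the whole gene. Kidney is dominated by tubule epithelium that reabsorbs ions, sugars, amino acids and proteins, whereas lung holds alveolar and airway epithelium, abundant capillary endothelium, fibroblasts and immune cells. Whole tissue was used, so fewer cells of a type and less polymerase per cell cannot be told apart in any ratio below.

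No annotation or sequence of the build of the deposited coordinates was used here. Regions are therefore given by chromosome and position as deposited, genes are not named, and neither tissue label was checked against marker genes. The coordinates fit mouse build mm9, which is a match of chromosome extents and not a statement by the submitters. With 1 library per tissue there was no test between tissues. Where a fold is followed by a range, this is a 95% interval, computed by the exact (Clopper-Pearson) method from both read counts. Such an interval covers counting error only, and without molecular identifiers the reads need not be separate molecules.

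The kidney library held 13786536 reads and the lung library 10846976, and the 5 libraries ranged from 10292262 to 14964934. Of kidney reads, 15.0% (95% exact binomial interval 15.0% to 15.0%) lay in the merged regions, against 16.2% (16.2% to 16.2%) of lung reads. The ratio of kidney to lung reads had a median of exactly 1 over the 16462 regions where each tissue held 20 or more reads, so raw read numbers can be set side by side on this scale. The ratio of total reads was 1.27, and farther than 5 kb from every region it was 1.29. Scaling by total reads in place of the regions moves every log2 ratio by -0.35. The numbers of calls and of runs are given on both scales. Other values are on the region scale unless stated.

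Kidney and lung shared a large part of their peaks, but seldom at the same base. A peak of both tissues fell in 33233 regions, which is 43.4% of the 76565 regions with a kidney peak and 48.2% of the 68904 with a lung peak. Kidney alone had a peak in 43332 regions and lung alone in 35671. Of the 81375 kidney peak positions, 44.6% had 1 of the 72971 lung positions within 500 bp, at a median distance of 120 bp there, and 11.4% had one within 50 bp. Many listed peaks were shallow: 32.3% of kidney peaks and 23.1% of lung peaks had 20 or more reads within 250 bp, with medians of 16 and 13 reads.

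A region was tested when it held at least 20 reads in at least 1 of the tissues, which 38640 regions did. Their median log2 ratio of kidney to lung was 0.39 (quartiles -0.40 and 1.32), and 55.8% lay within 2-fold. Kidney was at least 4-fold higher at 5783 regions, 15.0% of those tested, and lung at 1163, or 3.01%. At 2-fold the numbers were 12457 (32.2%) and 4636 (12.0%). Counts under 3 were set to 3 for these folds. Kidney thus took 83.3% of the 4-fold calls on this scale. That share was 68.8% with total reads as the scale, 67.5% with reads outside the regions and their flanks, and 69.4% when kidney reads were thinned to the lung number. With total reads as the scale, 3973 regions were called for kidney and 1803 for lung at 4-fold, and 9434 and 7028 at 2-fold.

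**Figure D1:**
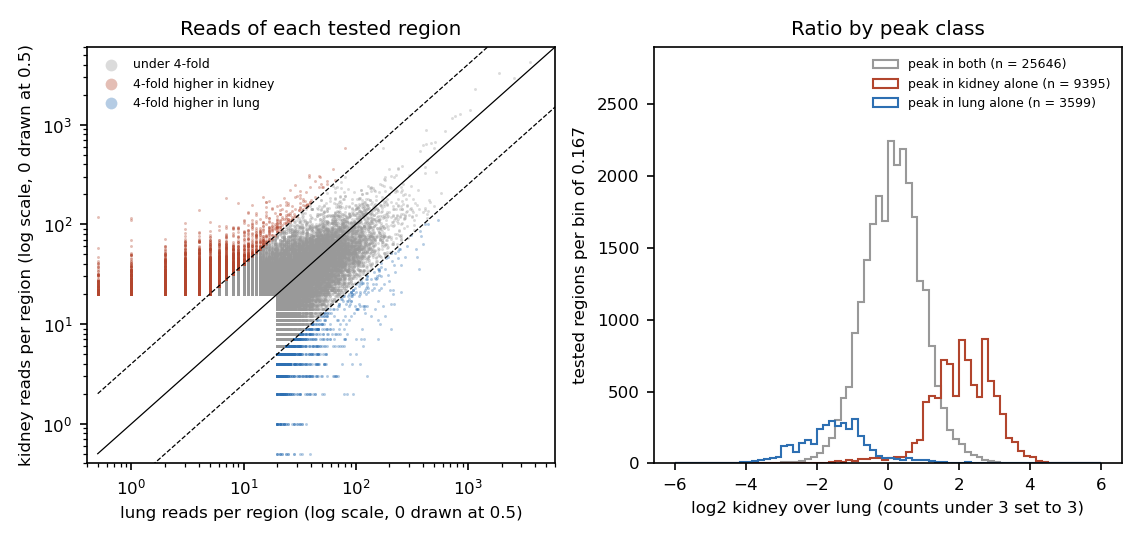
Left, kidney reads (vertical, log scale) against lung reads (horizontal, log scale) for each of the 38640 tested regions, with the line of equal reads and dashed lines at 4-fold; right, the number of tested regions per bin of log2 kidney over lung, by the tissue that had a peak. Red points above the upper dashed line are the 5783 regions higher in kidney and blue points the 1163 higher in lung. Regions with a peak in both tissues centre near equal reads.

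The deposited peak call and the read ratio went together, as both come from the same reads. At the 25646 tested regions with a peak in both tissues the median log2 ratio was 0.18 and 77.9% lay within 2-fold. This median turned to -0.17 when the libraries were scaled by total reads and to -0.19 when scaled by reads outside the regions, so its direction depends on the scale. Only 384 of them were at least 4-fold higher in kidney and 135 in lung. Where kidney alone had a peak, 9395 regions were tested, with a median log2 ratio of 2.12, and 5383 reached 4-fold. Where lung alone had a peak, 3599 regions were tested, with a median of -1.46, and 1018 reached 4-fold. The absence of a peak did not always mean a clear difference: 24.3% of the tested regions with a peak in lung alone were within 2-fold, against 7.37% of those with a peak in kidney alone. The gap between these shares depends on the scale. Total reads as the scale would move every log2 ratio by -0.35, toward lung, and the shares were not computed that way. A further 33937 regions with a peak in kidney alone and 32072 with a peak in lung alone had under 20 reads in both tissues and were not compared.

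The excess of kidney calls was largest at regions with few reads. Among regions whose higher tissue held 20 to 49 reads, 16.4% were called for kidney and 2.96% for lung. At 50 to 99 reads the shares were 8.66% and 2.22%, and at 100 to 199 reads 10.0% and 6.28%. At the 221 regions with 200 or more reads the order turned, with 19 regions (8.60%) called for kidney and 29 (13.1%) for lung, and a median log2 ratio of -0.79. The lower bound of the fold interval was above 2 at 3920 of the kidney calls and 770 of the lung calls, and 1382 and 235 regions reached 8-fold. Called kidney regions held a median of 27 reads in kidney and 4 in lung, and called lung regions 28 in lung and 5 in kidney.

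**Figure D2:**
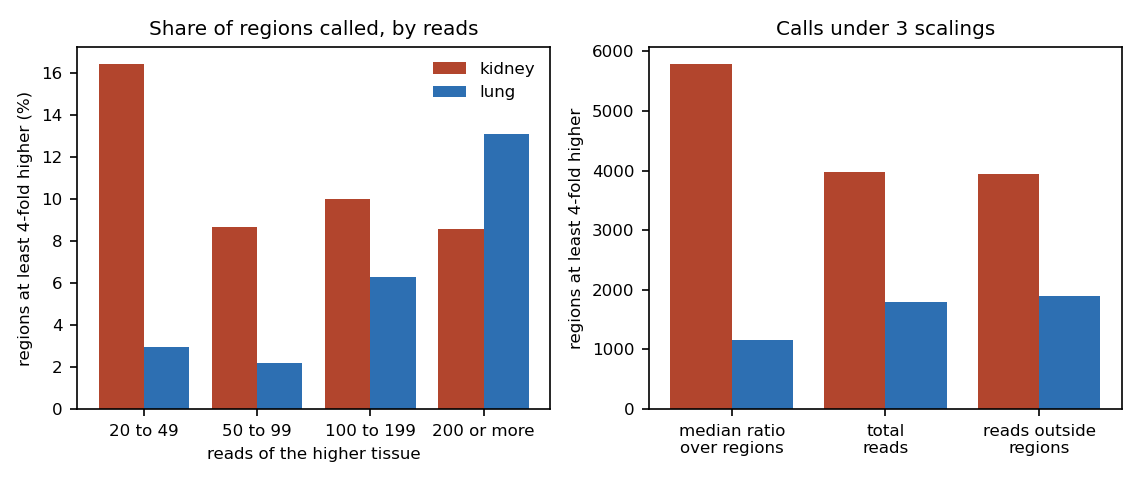
Left, the percentage of tested regions that were at least 4-fold higher in kidney (red) or lung (blue), by the reads of the higher tissue; right, the number of such regions under 3 ways of scaling the libraries. Kidney calls outnumber lung calls except among regions with 200 or more reads, and under each of these 3 scalings.

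The threshold cut a continuous distribution. Just inside it for kidney was a region at chr3:101379186-101379931 with 120 kidney and 30 lung reads, and just outside was chr2:122091761-122092811 with 143 and 36, a fold of 3.97. For lung, chr13:23831306-23831956 held 78 kidney and 312 lung reads, exactly 4-fold, and chr7:25756856-25757856, at 3.99-fold, held 73 and 291.

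The strongest kidney regions were nearly empty in lung. At chr19:12770006-12770506 kidney had 118 reads and lung 0, a ratio of 39.3 when lung is set to 3 reads, given without an interval. Liver had 40 reads there, brain 2 and spleen 3. At chr3:98528211-98528711 kidney had 116 reads and lung 1, a ratio of 116 with a very wide interval of 20.4 to 4621, and liver had 18. At chr8:63004651-63005151 the reads were 138 in kidney and 4 in lung (34.5-fold, 13.2 to 128), with 4 in liver, 2 in brain and 6 in spleen, so kidney stood alone among the 5 tissues. The same held at chr18:50211131-50211631, with 82 reads in kidney and 3 in lung (27.3-fold, 9.03 to 135), where no other tissue passed 8 reads. At chr5:24752871-24753371 kidney had 72 reads, lung 2 and liver 12.

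Some of these regions were higher still in liver, an organ that shares gluconeogenic and amino acid metabolism with the kidney tubule. The region at chr4:49562156-49562656 had 185 kidney reads and 7 lung reads (26.4-fold, 12.6 to 66.7), and 764 in liver, which is 633 on the kidney scale. At chr17:86550186-86550686 kidney had 103 reads, lung 3 and liver 260, and brain also had 28. At chr11:101239956-101240456 the reads were 89 in kidney, 3 in lung and 32 in liver, and at chr3:96633906-96634406 they were 72, 3 and 36. Liver was thus below kidney in the latter pair and above it in the former. At 1 of the 10 kidney regions, chr15:21586211-21586711, all 111 kidney reads lay on the plus strand, and liver had 59 reads and spleen 29. When reads with the same position and strand were counted once, its log2 fold went from 5.21 to 2.32, so most of its size rested on repeated reads. Polymerase peaks normally carry reads on both strands, as the other 9 of these regions did, for example 69 plus and 69 minus at the chromosome 8 region. Of all kidney calls, 2 had 90% or more of their kidney reads on a single strand, and no lung call did.

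The strongest lung regions were low in all other tissues. At chr15:101106231-101106731 lung had 126 reads and kidney 3 (42.0-fold, 14.0 to 206), with 17 in brain, 3 in liver and 1 in spleen. The region with most reads among the 10 was chr11:120592666-120593166, with 205 lung and 9 kidney reads (22.8-fold, 11.8 to 50.5) and 10 to 18 in the other 3 tissues. At chr16:10281856-10282856 lung had 94 reads against 2 in kidney. The region at chr5:53461586-53462086 held 83 and 2, and chr11:3978806-3979306 held 79 and 2. At chr6:72267251-72267751 the reads were 93 in lung and 4 in kidney (23.3-fold, 8.78 to 87.1), and at chr8:123613646-123614146 they were 69 and 3. The remaining regions, on chromosomes 10, 14 and 4, had 65, 64 and 76 lung reads against 3, 3 and 4 in kidney. No brain, liver or spleen value on the kidney scale was above 21.8 at any of the 10. None of these 10 had another tissue at the level of lung, but they were picked for the largest folds. Among all 1163 lung-high regions, spleen was at or above lung at 86.

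**Figure D3:**
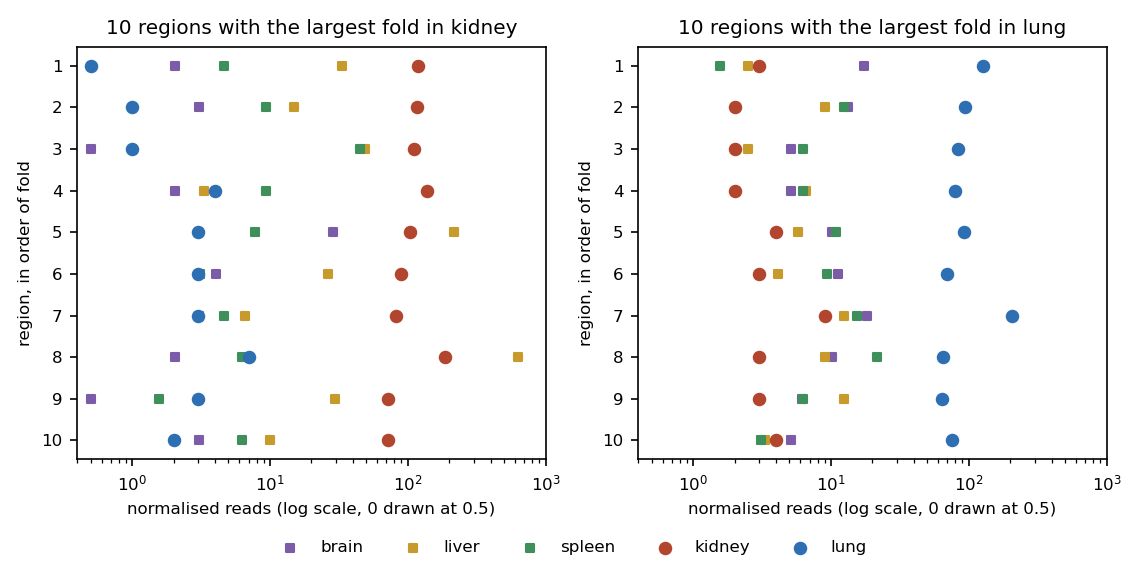
Normalised reads (horizontal, log scale) in each tissue for the 10 regions with the largest fold in kidney (left) and in lung (right), in order of fold from the top, with circles for kidney and lung and squares for the tissues not compared. Liver lies above kidney at the fifth and eighth kidney regions, and no square reaches the lung circle in the right panel.

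The 3 tissues that the comparison did not use separated the calls further. Of the 5783 kidney-high regions, 901 (15.6%) were also at least 4-fold higher in liver than in lung, with at least 20 liver reads, and at 533 liver was at or above kidney on the common scale. At 4-fold over lung the counts were 87 for brain and 14 for spleen, and at or above kidney they were 32 and 35. The 4-fold counts need 20 raw reads in the third tissue. That minimum is stricter for spleen, which has the lowest scaling factor, so the order of the tissues depends in part on it. Of the 1163 lung-high regions, 73 (6.28%) were also at least 4-fold higher in spleen than in kidney, 43 in liver and 35 in brain. Spleen was at or above lung at 86 of them, liver at 25 and brain at 21. The 4-fold brain count at lung-high regions was 55 with total reads as the scale, a setting that was added late, with the values known. No other tissue passed at 83.3% of kidney-high and 87.7% of lung-high regions. Kidney and lung serve as the reference in each of these 4-fold counts, so such a count shares its low tissue with the call. The same counts were not made at regions called for neither. Whether these shares exceed the general rate was not tested.

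The peak lists of the other tissues gave the same order as the 4-fold counts at kidney-high regions, but another order at lung-high regions. Median normalised reads at kidney-high regions had a different order, with 6.22 in spleen, 5.80 in liver and 4.09 in brain. None of brain, liver and spleen had a peak in 66.2% of kidney-high regions and 55.7% of lung-high regions, against 24.5% of tested regions called for neither. A liver peak lay in 24.8% of kidney-high regions and 15.6% of lung-high regions. A spleen peak lay in 2.61% and 19.3%, and a brain peak in 12.3% and 28.8%. At tested regions called for neither, the shares were 60.7% for brain, 50.9% for liver and 33.97% for spleen. Each tissue thus had a lower share at called regions of either direction than at regions called for neither. Brain led at regions called for neither too, so its lead at lung-high regions is not particular to them. Liver was above spleen there, unlike at lung-high regions. Peaks of all 3 other tissues were present in 0.519% of kidney-high regions, 5.42% of lung-high regions and 24.1% of regions called for neither. A single 501 bp window made up 86.3% of kidney-high and 81.0% of lung-high regions, against 17.6% of the rest. A lone peak gives this width by the way regions were built. Of all calls, 5383 kidney-high and 1018 lung-high regions had a peak in that tissue alone. The width therefore does not measure how far the signal reached.

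A part of the called regions lay in runs. A run joins at least 3 called regions of the same direction with gaps of up to 5 kb. There were 364 kidney runs, which held 2576 regions or 44.5% of the kidney calls, and 76 lung runs, which held 408 or 35.1% of the lung calls. Scaled by total reads, there were 260 kidney and 118 lung runs. The median span was 8.15 kb for kidney and 6.18 kb for lung, and the longest were 161 kb and 36.8 kb. Runs of 20 or more regions numbered 19 in kidney and 1 in lung, and 2375 kidney calls and 549 lung calls had no called neighbour within 5 kb. The share of all tested regions that would form such runs was not computed. Kidney also had more calls to join, so run numbers and lengths are not directly comparable between the tissues. Reads between the regions of a run took no part in the calls, although they come from the same libraries. They were higher in the same tissue in 364 of 364 kidney runs, with a median of 3.98-fold, and in 75 of the 75 lung runs with at least 20 such reads, with a median of 5.10-fold. They were at least 2-fold higher in 349 kidney and 73 lung runs, and at least 4-fold in 181 and 49. Near tested regions called for neither, the ratio of kidney to lung reads between regions was already 1.23. A kidney fold just above 1 is thus not particular to a run.

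The longest kidney run covered chr2:69261121-69422471 and held 127 called regions among 146. Over its 161 kb kidney had 10802 reads and lung 1647 (6.56-fold, 6.23 to 6.91). Between the regions the fold was 6.77 (6.22 to 7.37), so the difference was as large outside the listed peaks as over the whole span. Brain had 461 reads, liver 850 and spleen 868. Split into 4 equal parts by position, kidney had 3326, 2782, 2345 and 2349 reads and lung 586, 429, 332 and 300. Both tissues thus had most reads in the first of these parts, and the ratio went from 5.68 there to 7.83 in the last.

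The next runs, in order of called regions, were also high over their whole span. The run at chr2:124978186-125063086 held 61 called regions over 84.9 kb, with 5261 kidney and 873 lung reads (6.03-fold, 5.61 to 6.48) and 424 in liver. At chr16:92061146-92124196 there were 45 called regions, with 4113 kidney, 746 lung and 713 brain reads. The run at chr3:129390636-129458536 held 36 regions, with 3358 kidney and 697 lung reads. In these runs kidney was at 49.5 to 65.2 reads per kb and lung at 10.3 to 11.8. Lung was not empty along them: in the 10 to 50 kb to both sides it had 3.43 to 6.01 reads per kb. Over all 364 kidney runs, lung density was above its own density in these flanks in 276 (75.8%), with a median ratio of 1.27, and kidney density was a median of 2.78 times its own.

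Liver joined kidney in a part of the runs. At chr10:86995051-87057751, a run of 37 called regions, kidney had 2647 reads and lung 444, and liver had 3374, or 2794 on the kidney scale. At chr2:31328656-31377656, the sixth in order of called regions with 36, liver had 7928 reads against 3589 in kidney and 715 in lung. Of the 364 kidney runs, liver was at least 4-fold above lung in 47 (12.9%) and at or above kidney in 38. Brain passed in 2 and spleen in none. In 256 runs (70.3%) liver was at most 2-fold above lung. No such counts were made outside the runs, so no general rate stands beside them.

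Lung runs were fewer under both scalings and, with the regions as the scale, had a shorter median span. The largest lay at chr14:70887121-70923871, with 26 called regions, 2007 lung reads and 290 kidney reads (6.92-fold, 6.12 to 7.85). Its 4 equal parts by position had 286, 396, 548 and 777 lung reads, and 71, 74, 70 and 75 in kidney, so lung reads were unevenly spread while kidney reads were level. Liver had 904 reads there. The run at chr5:53440786-53463636 held 18 regions, with 1404 lung and 171 kidney reads (8.21-fold). At chr8:123588446-123616246 there were 16 regions, with 1426 and 212 reads.

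The fourth lung run, at chr15:101084081-101106731, had the highest lung density of the 5 largest, 131 reads per kb against 18.1 in kidney. It held 14 called regions, with 2975 lung and 409 kidney reads (7.27-fold, 6.56 to 8.09). The latter pair of its 4 equal parts carried 1041 and 1505 of the lung reads and 184 and 114 of the kidney reads, so the ratio was 5.66 and then 13.2. The lung region with the largest fold closes this run. The fifth run, at chr8:86243536-86265746, was the least marked of the 5, with 2240 lung and 616 kidney reads (3.64-fold, 3.32 to 3.98) and the most reads of both tissues in the first of its 4 parts. In the first 3 of these 5 runs kidney had 7.48 to 7.89 reads per kb, below its 7.85 to 8.34 in the flanks, and over all 76 lung runs it was above its flanks in 54.

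**Figure D4:**
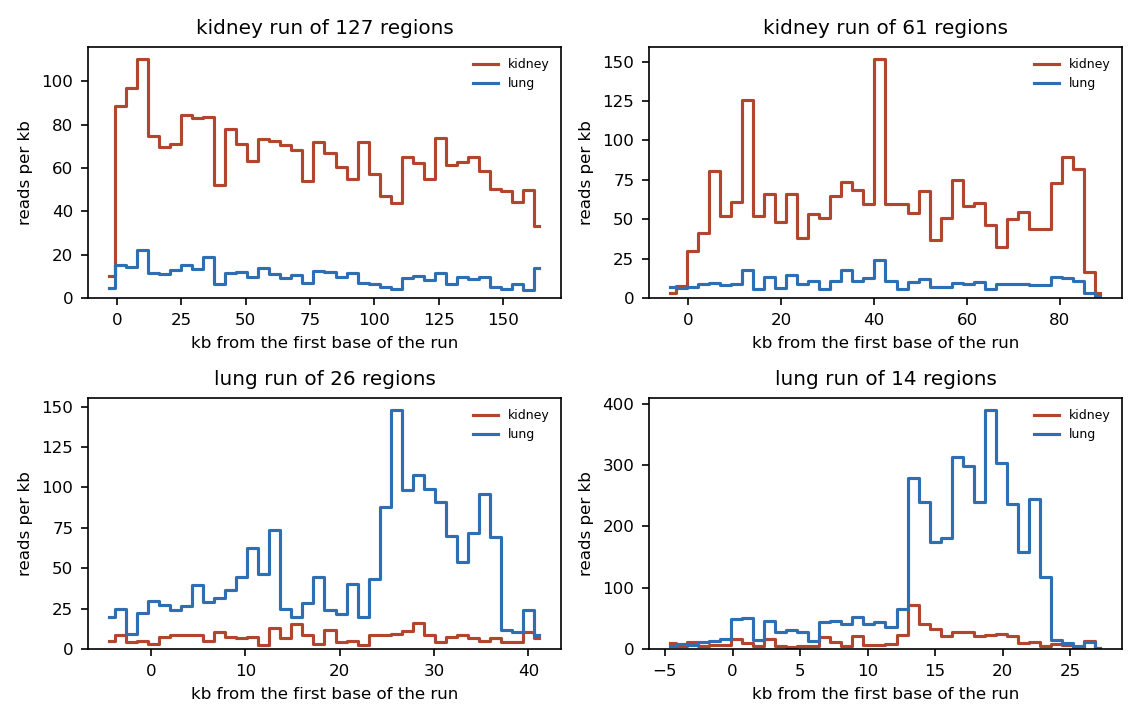
Reads per kb (vertical) of kidney (red) and lung (blue) in 40 equal bins along the 2 longest kidney runs and 2 lung runs, with 5 kb added to both sides; the horizontal axis is the distance in kb from the first base of the run. The kidney signal is high over the whole of its runs, and in the lung run of 14 regions the lung signal is concentrated in the second part.

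Spleen joined lung in a few of its runs. It was at least 4-fold above kidney in 6 of the 76 lung runs (7.89%), liver in 3 and brain in none. One of them, at chr18:60963301-60973951, held 673 lung, 202 kidney and 1099 spleen reads over 10.7 kb. Spleen has the lowest scaling factor of the 5 libraries, 0.644, so 1099 reads correspond to 1708 on the kidney scale. This run was chosen for mention after its values were seen. In 58 lung runs (76.3%) spleen was at most 2-fold above kidney. For lung runs, too, no such counts were made elsewhere.

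**Figure D5:**
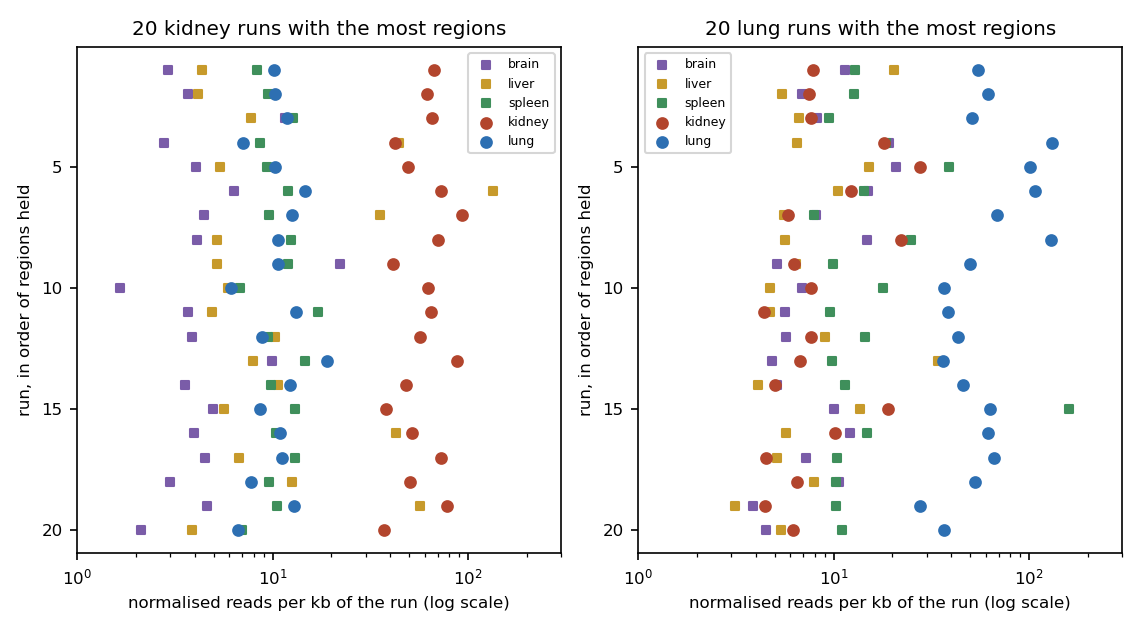
Normalised reads per kb (horizontal, log scale) in each of the 5 tissues over the whole span of the 20 kidney runs (left) and 20 lung runs (right) with the most called regions, in that order from the top. Liver squares lie near or beyond the kidney circle in a few kidney runs, and a single spleen square lies beyond the lung circle in the right panel.

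The sequence around called regions followed them. Between regions, within 5 kb of a kidney-high region, there were 894532 kidney and 305166 lung reads, a ratio of 2.93. Near lung-high regions the reads were 76295 and 194024, a ratio of 0.393, and near tested regions called for neither the ratio was 1.23. Flanks of neighbouring regions overlap, so a read can count for more than 1 region. Density at the centre of shared regions was lower relative to the flanks in kidney than in lung. At the 15954 regions with a peak in both tissues, 20 reads in both and under 1000 in either, mean density in the central 501 bp was 64.6 reads per kb in kidney and 68.7 in lung. From 1 to 5 kb away it was 22.0 and 18.6, which gives a centre over flank ratio of 2.93 in kidney and 3.70 in lung. At kidney-high regions the ratio was 2.00 in kidney and 0.943 in lung, and at lung-high regions 2.44 in lung and 1.11 in kidney. The tissue without the signal was low there by the choice of these regions.

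At a minority of places the tissues used neighbouring regions unequally. Among 29948 pairs of adjacent regions 1 to 10 kb apart that held 20 or more reads in kidney and in lung, the share of reads in the first region had separate 95% exact intervals in kidney and lung at 1645 (5.49%), and at 623 of these each tissue favoured a different region. Among the 6294 pairs with 50 or more reads in each tissue, 664 (10.5%) had separate intervals. The largest difference was at chr3:95691186-95691981 and chr3:95695536-95696036, where kidney had 53 and 14 reads and lung 18 and 51. The first region thus held 79.1% (67.4% to 88.1%) in kidney and 26.1% (16.3% to 38.1%) in lung. Liver, with 59 and 6 reads, was on the side of kidney.

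Liver was also nearer to kidney at the next 2 pairs, and at the latter of them brain was too. At chr17:35184481-35184981 and chr17:35186896-35187531 kidney had 43 and 31 reads, lung 7 and 77, liver 74 and 28, spleen 2 and 25, and brain 0 and 15. At chr3:89215546-89216096 and chr3:89222531-89223276 kidney had 297 and 49 reads, liver 618 and 112, and brain 106 and 22. Lung had 38 and 67 there, and spleen 26 and 23. At chr11:68753911-68754411 and chr11:68755961-68756526 kidney had 36 and 32 reads, lung 2 and 53, and liver only 1 and 7. The last pair ran the other way: at chr7:90014766-90015311 and chr7:90018111-90018766 kidney had 23 and 39 reads and lung 79 and 15. Liver, with 22 and 3, was there on the side of lung.

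At 7871 regions, 20.4% of those tested, the higher tissue was less than 25% above the lower. The 4 with the most reads held very many reads in every one of the 5 libraries: chr2:98502571-98503086 had 4258 kidney, 3582 lung and 8704 spleen reads, and the others lay on chromosomes 9 and X. No input library was used, so whether these reads reflect polymerase was not tested. The fifth, chr7:52965961-52966531, differed from these 4 regions. It had 377 reads in kidney and 417 in lung (ratio 0.904, 0.784 to 1.04), 333 in liver and 210 in brain, but 23 in spleen.

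Calls were spread over the chromosomes, from 9.16% of tested regions for kidney on chromosome 17 to 20.9% on chromosome 2, where the 2 longest runs lie. For lung they went from 1.66% on chromosome 13 to 4.82% on chromosome 14, leaving out Y, which had a single tested region.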

How the data were processed

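Per the labels, the data are RNA polymerase II immunoprecipitations of whole tissue with 1 library each. For each library the authors deposited aligned reads (chromosome, start, end, strand) and peak positions on a 5 bp grid without width or score. Bowtie was used, per the submitters' processing notes; the sources used here do not give its version, the build, the peak caller or the calling threshold. No input library was used. On chromosome 7 the last read lay at 152524233, past the last gene of the GRCm38 table, so no gene name or sequence was taken from that table. The gene and marker lists were not analysed.

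Reads of 34 to 36 bases were kept (10 kidney and 8 lung lines were left out), and each read counted once at its 5′ end, repeats included (4.51% of kidney and 7.16% of lung reads). Scaling was by the median ratio over regions with 20 reads in both tissues. That minimum pulls the median toward 1: thinning kidney to 78.7% of its reads gave a factor of 0.855. Other tissues were scaled to kidney over 5233 regions with 20 reads in all 5 (0.979 brain, 1.21 liver, 0.644 spleen).

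Named regions are the 10 per direction with the largest fold among called regions with 50 or more reads in the higher tissue, at least 50 kb apart; the 5 runs per direction with most regions; the 5 regions with the highest lower count among those with a difference under 25%; the 5 adjacent pairs that differ most, with 50 reads in both; and regions beside the threshold. Further runs are named as such. The regions, lists and rules were chosen with earlier results of these data known. The other tissues' levels over runs, their peaks, strand balance and run flanks were added after the data were seen. The calls were tested on simulated data. Analyses ran in Python 3.11.15 with SciPy 1.17.1, NumPy 2.4.6 and pandas 2.3.3, and plots in Matplotlib 3.10.9. Alternatives covered scaling, repeats, window size, read position, minimum, floor, depth, background and the peak lists.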

Additional observations from a re-analysis of the deposited data

How the results depend on the processing

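No paired analysis was possible because each tissue has 1 library. Regions at least 4-fold higher in kidney outnumbered those in lung under each alternative run, but both counts depend on the settings. Scaling by total reads gave 1803 lung regions at 4-fold, 7028 at 2-fold and 118 lung runs, and scaling by reads outside regions and flanks gave 1893 lung regions. The median log2 ratio at regions with a peak in both tissues changed sign, to -0.17 and -0.19 under these scalings. A half-width of 100 bp, which leaves fewer reads per region, gave 1197 kidney and 347 lung regions. A minimum of 10 reads gave 13987 and 3602, and a minimum of 50 gave 669 and 241. Thinning kidney gave 3209 kidney regions, and subtracting local background gave 2468 lung regions (the cause was not tested). Peaks of both tissues within 100 bp fell in 16285 regions, and peaks with 20 or more reads gave 9845 shared, 15437 kidney-only and 6354 lung-only regions. Requiring 50 reads in both tissues left 664 differing pairs. Scaling the third tissue by total reads, chosen after the data were seen, gave 55 lung-high regions also high in brain. All 20 named regions stayed at 4-fold or more under total-read scaling, removal of repeats and a 75 bp move, 60 values in all. The region at chr15:21586211-21586711 fell from a log2 fold of 5.21 to 2.32 without repeated reads. These regions had been picked for the largest folds. Total-read scaling moves each log2 ratio by -0.35, which could not take any of them below 4-fold. The minimum of 20 reads was not applied again to these values. The gene-list alternatives were not run, as no annotation of the build was used. Depth limits regions under 20 reads in both tissues, which were not compared.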
